A study of Saccharomyces cerevisiae with 5 samples.

Results

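The genes examined here are 9 genes of thiamine (vitamin B1) synthesis, uptake and regulation in budding yeast (Saccharomyces cerevisiae): THI4, THI6, THI13, THI20, THI7, PET18, THI2, THI3 and PDC2. The list is one of gene names, each of which was matched to 1 probe set, so that 9 of the 5449 genes tested on the arrays are described. RNA was measured on 5 Affymetrix expression arrays, 2 of a strain labelled as a PHO2 deletion mutant and 3 of the wild-type reference strain FY4. Per the labels, both groups grew exponentially in batch culture at 30 °C in minimal medium with glucose, and the design text says that cells were taken at one density. Neither the age of the cultures, the thiamine content of the medium nor the strain background of the deletion mutant is given here. Whether replicates were separate cultures is not in the labels either, so p-values speak only of the spread among these arrays, which could be technical.

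Yeast builds thiamine from a pyrimidine and a thiazole that are made separately and then joined. The thiazole comes from Thi4, and the pyrimidine from the enzymes of the THI5 family, to which THI13 belongs. Thi20 phosphorylates the pyrimidine, and Thi6 joins it to the thiazole. The product is converted to thiamine diphosphate, the cofactor of enzymes such as pyruvate decarboxylase and transketolase. Thi7 takes thiamine up from the medium. When thiamine is scarce, the regulators Thi2, Thi3 and Pdc2 are known to raise transcription of these genes, and thiamine represses them. Pho2, a homeodomain factor, acts with partner factors at purine, histidine and phosphate genes.

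The values are log2 of the deposited probe set signal. Levels of different probe sets are not set against each other, because probes differ in how strongly they bind. The background bound was 6.44 on this scale (signal 86.9), the 95th percentile of annotated probe sets with no matched S. cerevisiae gene. The mean of every one of the 9 genes lay above the bound, and THI13 came nearest to it, with a lowest value of 7.51. The values average over all cells of a culture, so more expressing cells and more RNA per cell cannot be told apart. Taken over every probe set on the array, named or not, the median signal was 312.8 and 297.2 in samples labelled PHO2 deletion, against 260.2, 252.5 and 243.7 in wild-type, so that both samples labelled PHO2 deletion lay above every wild-type array. With the arrays quantile normalized again, which removes this shift, the differences described below were 0.99 for THI13 (adjusted p = 0.0263 by limma) and 0.44 for PET18 (0.0284). Median log2 values over the 5449 genes were closer, at 11.18 and 11.16 in samples labelled PHO2 deletion, against 11.13, 11.16 and 11.09 on the wild-type arrays. The targeted gene did not separate the groups: PHO2 read 10.07 and 10.84 in samples labelled PHO2 deletion, against 10.72, 10.54 and 10.38 in wild-type (difference -0.09, SE 0.24, adjusted p = 0.825 by limma). Where its probes lie is unknown here, so the group names serve as labels only, and every direction below refers to samples by their label.

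The design text sets the deletion mutant against FY4, transcript by transcript. Of the 9 thiamine genes, 2 rose in the arrays labelled PHO2 deletion, THI13 and PET18, and 0 fell (limma, adjusted p below 0.05 over all genes). At an unadjusted p below 0.05 there were 5 with higher and 0 with lower values. Of all 5449 genes, 879 were higher and 724 lower at such a p, or 29.4% in either direction. THI13 was 2.27-fold and PET18 1.501-fold the wild-type level. THI2, which encodes a transcriptional activator of thiamine genes, stood just outside the threshold. Over all genes 5.05% were called, 173 up (3.17%) and 102 down (1.87%). With the arrays quantile normalized again the split was 173 up and 210 down, and with a trend on coding length removed it was 243 up and 68 down. The median difference over all genes was -0.05 and 0.05 in these settings, in that order, so the splits also carry a general shift. The 9 genes and the lists further below were chosen with earlier results of these data known. Their counts and medians are therefore set beside those of all genes as a description only. For 6 of the 9 genes both arrays labelled PHO2 deletion lay above every wild-type array, against 27.1% of all genes, and for 0 genes both lay below, against 25.9% of all genes. The median difference of the 9 genes was 0.23, against 0.01 over all genes tested. The plot of values by array shows these groups.

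**Figure D1:**
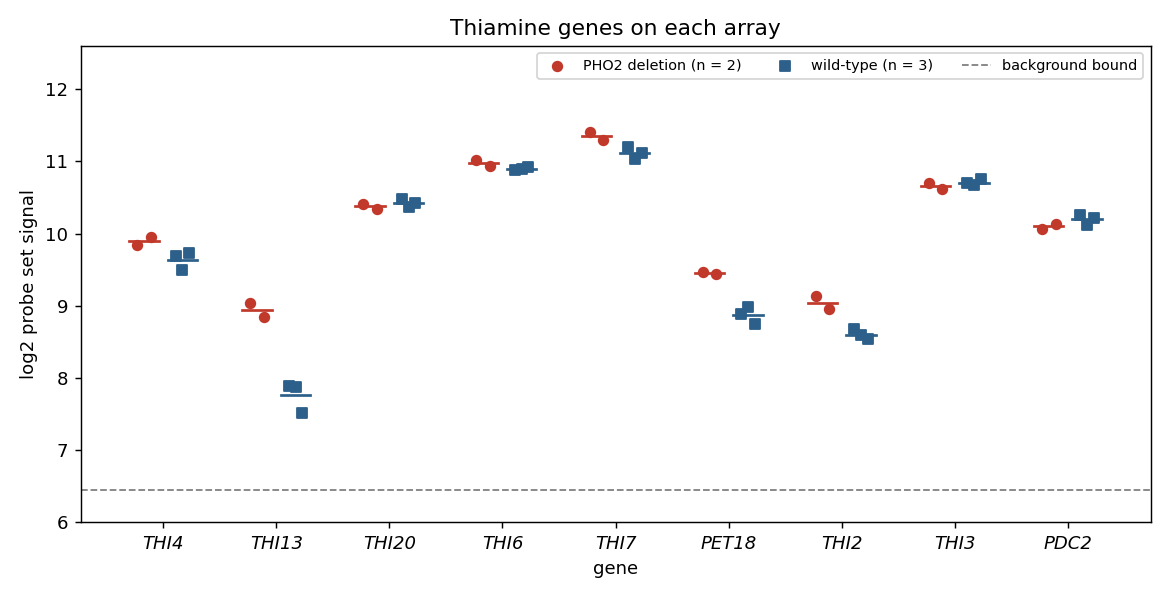
Log2 probe set signal (y axis) of the 9 thiamine genes (x axis) on each array. Red circles are the 2 arrays labelled PHO2 deletion, blue squares the 3 wild-type arrays, short lines group means and the dashed line the background bound of 6.44. THI13 shows the widest gap between groups, with 8.85 as its lower value in the arrays labelled PHO2 deletion and 7.89 as its highest in wild-type.

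THI13 stands for the pyrimidine branch, whose enzymes make the hydroxymethylpyrimidine phosphate of thiamine from vitamin B6 and histidine. Its signal was 524 and 461 in samples labelled PHO2 deletion, against 238, 235 and 182 on the wild-type arrays. On the log2 scale these are 9.03 and 8.85, a mean of 8.94 ± 0.13 (SD, n = 2), against 7.89, 7.87 and 7.51, a mean of 7.76 ± 0.22 (SD, n = 3). The groups did not overlap: the gap between them was 0.95, wider than the range of 0.38 within wild-type, where replicate 3 was lowest. The difference was 1.18 (95% interval 0.82 to 1.54, SE 0.14, adjusted p = 0.0211 by limma), which ranks 70 of 5449 among differences ordered from the highest. The 200 genes nearest to THI13 in mean level had a median difference of 0.15, and the part of this shift in the THI13 result was not tested. The difference remained at 1.06 or above without any 1 array, but it missed the threshold when wild-type replicate 1 (adjusted p = 0.0752 by limma), the first array labelled PHO2 deletion (0.164) or the second (0.106) was left out.

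The THI13 probe set carries the array maker's mark for probes shared between sequences, as do the probe sets of 1.82% of the genes tested (99 of 5449). The platform annotation names THI13 alone for it. THI5, THI11 and THI12 are known as near-identical copies of THI13, have the same coding length of 1023 nt in assembly R64 and have no annotated probe set of their own here. The value may therefore include RNA of these copies, and the part of each copy in it was not tested. The copies lie beside other gene families in the R64 gene order. SNZ3 and SNO3, vitamin B6 genes, are next to THI5, and SNZ2 and SNO2 are next to THI12. Aryl-alcohol dehydrogenase genes also lie beside copies, AAD4 beside THI13, AAD10 beside THI11, AAD14 beside THI12 and AAD6, listed there as a pseudogene, beside THI5. AAD10 rose by 0.40 (SE 0.05, adjusted p = 0.0278 by limma). AAD4, whose probe set also has the shared mark, differed by 0.25 (adjusted p = 0.0933 by limma) and AAD14 by 0.15 (adjusted p = 0.236 by limma). The other measured genes of that family, AAD3 and AAD6, differed by 0.13 and 0.08 (adjusted p = 0.611 and 0.645 by limma). The hexose transporter gene HXT15, on the other side of THI13, was below the background bound in both groups, at 5.19 in the arrays labelled PHO2 deletion and 5.26 in wild-type.

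THI20, the second gene of the pyrimidine branch, encodes the kinase of the pyrimidine, which also carries a thiaminase domain. It read 10.41 and 10.35 in samples labelled PHO2 deletion, against 10.48, 10.37 and 10.43 in wild-type. The groups overlapped, and the difference of -0.04 (95% interval -0.20 to 0.11, adjusted p = 0.659 by limma) was smaller than the wild-type range of 0.11. Its paralog THI21, a kinase of the same step, had a difference of -0.01 (95% interval -0.21 to 0.19). The third copy, THI22, which is not needed for thiamine synthesis, read 10.31 and 10.77 in samples labelled PHO2 deletion, against 10.28, 10.25 and 10.19 in wild-type. Replicate 2 labelled PHO2 deletion was alone in standing well above the rest, and the difference of 0.30 (SE 0.14) had an adjusted p of 0.216 by limma.

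THI4 encodes the thiazole synthase, a protein that gives up a sulfur of its own cysteine for each thiazole made. It read 9.84 and 9.95 in samples labelled PHO2 deletion, against 9.69, 9.50 and 9.73 in wild-type. Both arrays labelled PHO2 deletion were above every wild-type array, but by a gap of 0.11 that is narrower than the wild-type range of 0.23. The difference was 0.26 (95% interval 0.03 to 0.48, SE 0.09) and did not pass the test (adjusted p = 0.141 by limma). With the arrays quantile normalized again it was 0.15 (adjusted p = 0.404 by limma).

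THI6 encodes the bifunctional enzyme that phosphorylates the thiazole and joins it to the pyrimidine. Its values were 11.02 and 10.93 in samples labelled PHO2 deletion, against 10.88, 10.89 and 10.92 in wild-type. The groups were separated by a gap of only 0.01, and the difference of 0.08 (95% interval -0.06 to 0.22) did not pass the test (adjusted p = 0.381 by limma). THI80, whose product makes thiamine diphosphate from thiamine, had a difference of -0.11 with a wide interval of -0.55 to 0.33, since wild-type replicate 1 (11.20) lay below the other two (11.71 and 11.69).

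THI7 encodes the main plasma membrane transporter of thiamine. It read 11.41 and 11.29 in samples labelled PHO2 deletion, against 11.20, 11.03 and 11.12 in wild-type. The groups did not overlap, with a gap of 0.09. The difference of 0.23 (95% interval 0.04 to 0.43, SE 0.08) did not pass the test (adjusted p = 0.126 by limma). Of its paralogs, NRT1, known as a transporter of nicotinamide riboside that also carries thiamine, rose, whereas THI72 had a difference of 0.01 (95% interval -0.40 to 0.43). NRT1 read 10.75 and 10.70 in samples labelled PHO2 deletion, against 10.24, 10.27 and 10.35 in wild-type. Its groups were 0.36 apart, more than 3 times the wild-type range of 0.11, and it rose by 0.44 (SE 0.06, adjusted p = 0.0267 by limma). NRT1 missed the threshold when wild-type replicate 1 (adjusted p = 0.116 by limma), wild-type replicate 2 (0.0519), the first array labelled PHO2 deletion (0.195) or the second (0.136) was left out.

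PET18 encodes a protein of unclear role that resembles thiaminase and thus a part of Thi20. It read 9.46 and 9.44 in samples labelled PHO2 deletion, against 8.88, 8.98 and 8.74 in wild-type. The mean was 9.45 ± 0.01 (SD, n = 2) for samples labelled PHO2 deletion and 8.87 ± 0.12 (SD, n = 3) for wild-type. The groups were 0.47 apart, wider than the wild-type range of 0.24. PET18 rose by 0.59 (95% interval 0.38 to 0.80, SE 0.08, adjusted p = 0.0295 by limma). The 200 genes nearest to it in mean level had a median difference of 0.08. At 648 nt it is the shortest of the 9 genes, and the 200 genes nearest to it in coding length had a median difference of 0.13. With a trend on coding length removed from each array, the difference was 0.49 (adjusted p = 0.0150 by limma). It missed the threshold when wild-type replicate 1 (adjusted p = 0.124 by limma), the first array labelled PHO2 deletion (0.202) or the second (0.154) was left out, while the difference was 0.52 or above without any 1 array. The adjacent gene MAK31, needed to maintain the killer virus RNA of yeast, had a large but uncertain difference of 1.07 (SE 0.35, adjusted p = 0.132 by limma), and MAK32 on the other side had -0.11 (adjusted p = 0.304 by limma).

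**Figure D2:**
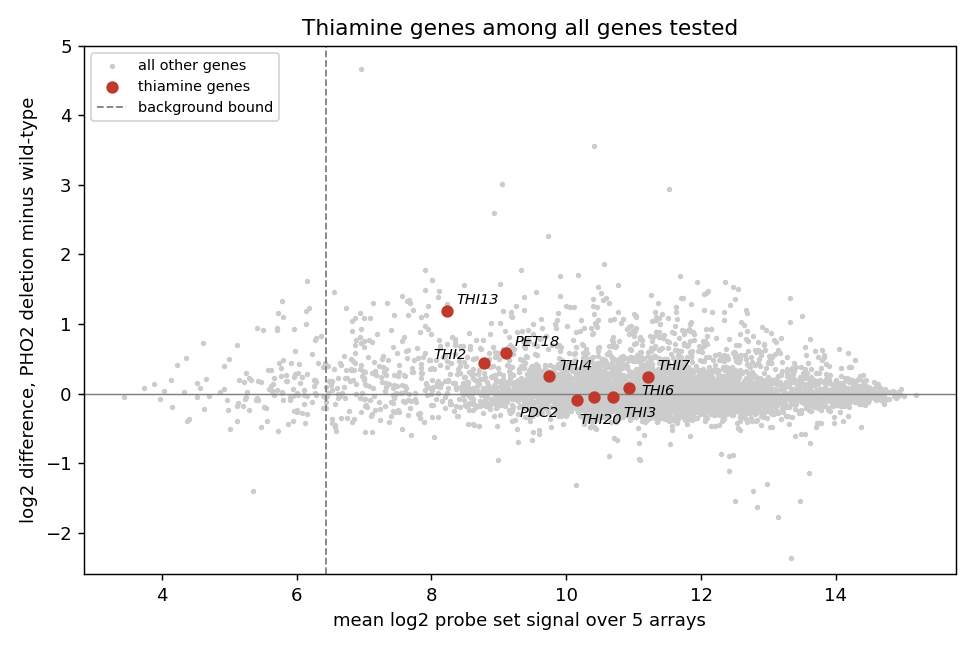
Mean log2 signal over the 5 arrays (x axis) and log2 difference, PHO2 deletion minus wild-type (y axis), for the 5449 genes tested. Red points are the 9 thiamine genes and the dashed line is the background bound of 6.44. THI13, at a mean level of 8.23 and a difference of 1.18, lies apart from the other thiamine genes, none of which exceeds 0.59.

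The regulators of the pathway held 0 called genes of 3 (limma, adjusted p below 0.05), and 1 had an unadjusted p below 0.05, against 5.05% and 29.4% of all genes, so that 3 genes are too few to set apart from the rest. THI2 encodes a zinc cluster activator and is also listed as PHO6 in the R64 gene table. It read 9.14 and 8.95 in samples labelled PHO2 deletion, against 8.67, 8.59 and 8.54 in wild-type. The groups did not overlap, and their gap of 0.28 was wider than the ranges of 0.19 within the arrays labelled PHO2 deletion and 0.14 within wild-type. The difference of 0.44 (95% interval 0.24 to 0.65, SE 0.08) had an adjusted p of 0.0504 by limma, just outside the threshold. It was past the threshold with dim genes left out of the fit (0.0481), with array weights (0.0365) and with a trend on coding length removed (0.0339). In the last of these settings its difference was 0.57, and the median over all genes was 0.05. The 200 genes nearest to THI2 in mean level had a median difference of 0.06, and those nearest in coding length -0.07. With the arrays quantile normalized again the THI2 difference was 0.27 (adjusted p = 0.0655 by limma). Over all alternatives its adjusted p by limma ran from 0.0339 to 0.251.

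THI3 encodes a protein related to pyruvate decarboxylase that binds thiamine diphosphate and acts as a sensor for the THI genes. It read 10.70 and 10.61 in samples labelled PHO2 deletion, against 10.70, 10.67 and 10.75 in wild-type, and the groups overlapped. The difference was -0.05 (95% interval -0.20 to 0.10, adjusted p = 0.581 by limma). PDC2, a transcriptional regulator of pyruvate decarboxylase and thiamine genes, read 10.07 and 10.13 in samples labelled PHO2 deletion, against 10.26, 10.11 and 10.22 in wild-type. Wild-type replicate 2 lay between the arrays labelled PHO2 deletion, and the difference was -0.10 (95% interval -0.27 to 0.07, adjusted p = 0.365 by limma). The intervals of THI3, PDC2 and THI20 leave out changes of the size measured for THI2 and PET18. The small negative signs of these 3 genes are not settled, as each turned positive once the trend on coding length was removed (0.049, 0.020 and 0.063). The median difference over all genes also rose in that setting, from 0.008 to 0.052, and THI3 and PDC2 stayed below it. The part of this general shift in the signs was not tested.

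To describe how the 9 genes vary among themselves, the distance between genes was taken as the root mean square difference of their log2 values over the 5 arrays, each gene centred on its mean. THI20 and THI3 were nearest to each other (0.03), followed by THI20 and PDC2 (0.05). THI4 and THI7 were 0.09 apart and THI2 and PET18 0.11. THI13 was farthest from the rest, between 0.31 (PET18) and 0.65 (PDC2). All of these distances are over the same 5 arrays and are given as a description.

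Among other genes, those nearest to the mean profile of the 9 were YMC1 (distance 0.02), a mitochondrial carrier, the uncharacterised gene YMR181C (0.02), ATP5 (0.03), a subunit of the ATP synthase, MDH1 (0.03), the mitochondrial malate dehydrogenase, and TPC1 (0.03), the carrier of thiamine diphosphate into mitochondria. The median distance of all other genes was 0.18. That profile is itself higher in samples labelled PHO2 deletion, so the differences of these genes, from 0.28 to 0.32, follow from how they were picked. The genes nearest to THI13 were BNA2 (0.03), the first enzyme of the route from tryptophan to NAD, ARO9 (0.09), an aromatic aminotransferase, and YPS6 (0.10), a putative aspartic protease, against a median distance of 0.60. BNA2 followed THI13 closely, with 9.87 and 9.69 in samples labelled PHO2 deletion, against 8.73, 8.65 and 8.39 in wild-type. In both genes wild-type replicate 3 was the lowest array. Over all genes that array also had the lowest array weight, 0.459, against 2.035 and 0.748 for wild-type replicates 1 and 2. Each array labelled PHO2 deletion had 1.196. The differences of BNA2 (1.19), ARO9 (1.05) and YPS6 (1.17) are fixed by the choice of genes like THI13 and are given without a test. ARO9 was close to the background bound, with 6.27 on wild-type replicate 3.

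Other genes of thiamine handling held 1 called gene, NRT1, among 9 measured of 12 listed, and 0 that fell (limma; 2 with higher and 0 with lower values at an unadjusted p below 0.05). Their median difference was 0.07. Over all genes 5.05% were called and 29.4% had such a p, in either direction. After NRT1 the largest differences in the list were those of THI22, given above, and TPC1. TPC1 read 9.36 and 9.34 in samples labelled PHO2 deletion, against 9.17, 9.02 and 9.002 in wild-type (difference 0.29, SE 0.07, adjusted p = 0.0830 by limma). PHO3, the acid phosphatase that frees thiamine from its phosphates and is known to be repressed by thiamine, read 9.91 and 9.91 in samples labelled PHO2 deletion, against 9.91, 9.72 and 9.91 in wild-type. Its groups overlapped, and the difference was 0.06 (95% interval -0.14 to 0.27).

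Vitamin B6 genes were listed because the THI5 family draws on vitamin B6 and because SNZ2, SNZ3, SNO2 and SNO3 adjoin copies of that family. This list was also chosen with earlier results of these data known, so its counts and median are a description. SNZ genes encode the synthase and SNO genes the glutaminase of pyridoxal phosphate. Of 8 measured of 10 listed, SNO3 rose and 0 fell (limma), with 5 higher and 0 lower at an unadjusted p below 0.05 and a median difference of 0.29. Over all genes 5.05% were called and 29.4% had such a p, in either direction. Beside the genes given below, those 5 held SNZ1 (0.38) and PDX3 (0.20), named because of that count. SNO3 read 10.50 and 10.45 in samples labelled PHO2 deletion, against 9.89, 9.94 and 9.86 in wild-type. The gap of 0.51 exceeded the wild-type range of 0.08, and SNO3 rose by 0.58 (SE 0.06, adjusted p = 0.0145 by limma). The probe sets of SNO3 and SNZ3 carry the shared mark, and SNO2 and SNZ2, of equal coding length to SNO3 and SNZ3 (669 and 897 nt), have no annotated probe set of their own. SNZ3 read 10.77 and 10.66 in samples labelled PHO2 deletion, against 10.37, 10.33 and 10.12 in wild-type (difference 0.44, SE 0.09, adjusted p = 0.0655 by limma). SNO1, on another chromosome, read 7.65 and 7.03 in samples labelled PHO2 deletion, against 6.47, 6.39 and 6.87 in wild-type. Its wild-type replicate 2 was below the background bound, and the difference of 0.76 (SE 0.23) had an adjusted p of 0.118 by limma. The 200 genes nearest in coding length had median differences of 0.11 for PDX3 and SNO1 and 0.12 for SNO3. For SNZ1 and SNZ3 this median was 0.01. With a trend on coding length removed, SNO3 rose by 0.50 (adjusted p = 0.0126 by limma). The part of coding length in the median of the list was not tested. SNO3 missed the threshold when wild-type replicate 1 (adjusted p = 0.0757 by limma), the first array labelled PHO2 deletion (0.140) or the second (0.0864) was left out.

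Enzymes that use thiamine diphosphate held 0 called genes among 10 measured of 11 listed (limma), with 0 higher and 2 lower at an unadjusted p below 0.05. Those 2, named because of that count, were PDB1 of pyruvate dehydrogenase (-0.18) and ILV2 of branched-chain amino acid synthesis (-0.13). Over all genes 5.05% were called and 29.4% had such a p, in either direction. The median difference of the list was -0.08. The largest differences belonged to ARO10, a decarboxylase of amino acid breakdown (0.38, 95% interval -0.10 to 0.86), PDC6, the minor pyruvate decarboxylase (-0.24, 95% interval -0.48 to 0.01), and TKL2, the minor transketolase (0.19, 95% interval -0.29 to 0.67). ARO10 and TKL2 came close to the background bound, with lowest values of 6.96 and 6.81. The 200 genes nearest to each in mean level had median differences of 0.23 and 0.16. The main pyruvate decarboxylase gene PDC1, a target of Pdc2, read 14.87 and 14.87 in samples labelled PHO2 deletion, against 14.90, 14.86 and 14.94 in wild-type (difference -0.02, 95% interval -0.16 to 0.11). PDC5, the other Pdc2 target, differed by -0.09 (95% interval -0.34 to 0.17). The plot of differences by list shows these intervals side by side.

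**Figure D3:**
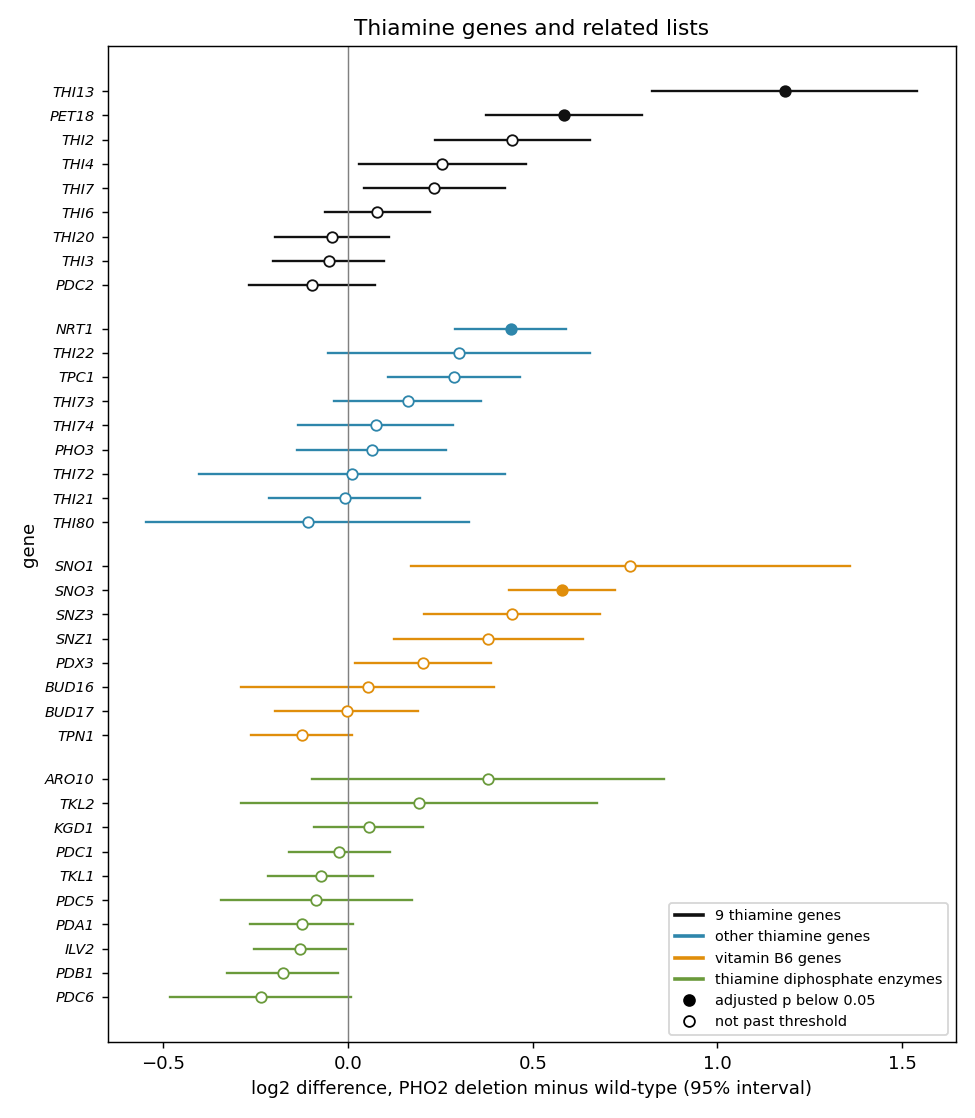
Log2 difference, PHO2 deletion minus wild-type (x axis), with its 95% interval from limma, for the 9 thiamine genes and the measured genes of 3 related lists (y axis). Filled points passed an adjusted p of 0.05 over all genes. These are THI13 (1.18), PET18 (0.59), NRT1 (0.44) and SNO3 (0.58).

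The plot with each array left out shows how far the values of the 9 genes rest on single arrays. THI13 ranged from 1.06 to 1.27, PET18 from 0.52 to 0.64 and THI2 from 0.35 to 0.54. The sign of each of the 9 differences was the same without any 1 array. For the 6 genes with both arrays labelled PHO2 deletion above every wild-type array, that separation fixes the sign in advance. The number of called genes among the 9 was 2 when wild-type replicate 2 or 3 was left out, with 257 and 243 called over all genes. It was 0 when wild-type replicate 1 was left out (23 over all genes), and also with the first array labelled PHO2 deletion (19) or the second (26) left out.

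**Figure D4:**
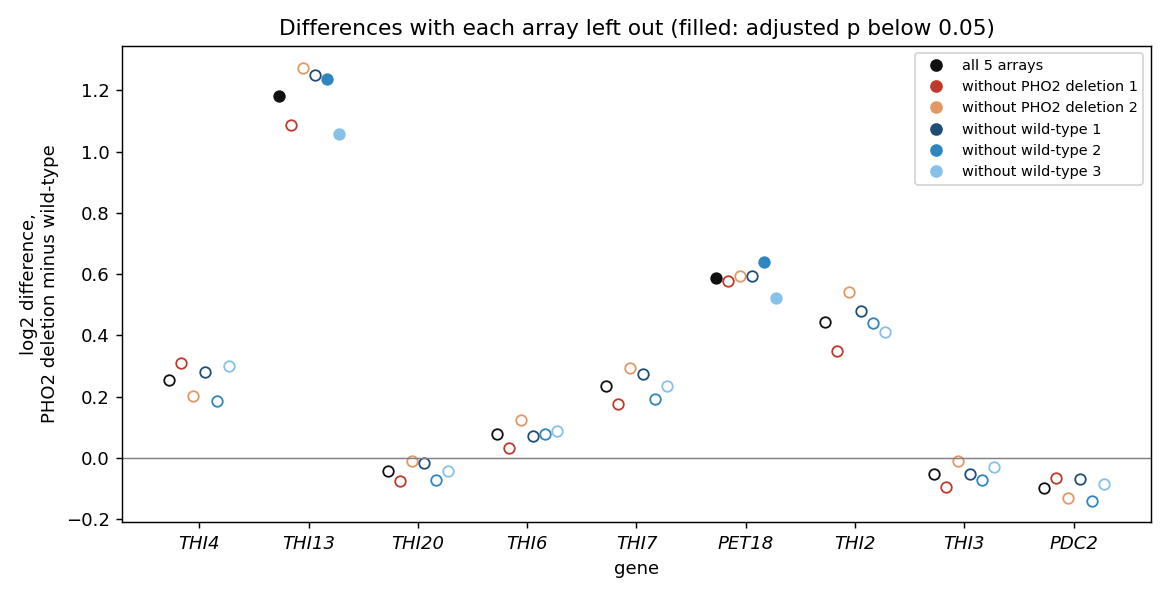
Log2 difference, PHO2 deletion minus wild-type (y axis), of the 9 thiamine genes (x axis) with all 5 arrays (black) and with 1 array left out (colours). Filled points passed an adjusted p of 0.05. THI13 stays at 1.06 or above and PET18 at 0.52 or above, and both are filled only with all arrays and without wild-type replicate 2 or 3.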

How the data were processed

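The authors deposited 1 intensity per probe set and array, on a linear scale from 9.49 to 37719. R 2.8.0, affy and RMA are named in the submitters' processing notes. RMA yields log2 values, so a return to the linear scale is inferred. Which arrays were normalized together is not stated there. Groups and replicate numbers come from the sample titles, and 0 columns were left unused. Of 10928 probe sets, 5498 were matched to 1 gene of assembly R64 by gene number or locus tag, and the brightest was used where a gene had several (47 genes). The other 1747 annotated probe sets gave the background bound. No build is named for the values, so no coordinates are given.

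Log2 values of 5449 genes were fitted by lmFit and eBayes of limma 3.58.1 under R 4.3.3 (two-sided, Benjamini-Hochberg, threshold 0.05). Errors are limma's moderated SE and 95% intervals. With 10 splits of the arrays, a permutation test cannot pass the threshold. The number of arrays limits the precision. The members and lists were chosen with earlier results of these data known. All 9 members are named, and of each other list those past the threshold, the 3 largest differences and relatives of members. For pattern likeness, the 5 genes nearest to the mean profile and the 3 nearest to the member with the largest difference are named. The alternatives were 13: normalization, scaling, trend, array weights, dim genes, probe set choice, coding length, replicate block and each array left out.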

Additional observations from a re-analysis of the deposited data

How the results depend on the processing

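THI13 and PET18 remained past the threshold in 9 of 13 alternatives each. The median difference of the 9 genes, 0.23, was 0.15 with the arrays quantile normalized again and 0.32 with the coding length trend removed, and 0.18 to 0.27 with 1 array left out. Removing that trend turned THI3 to 0.049, THI20 to 0.063 and PDC2 to 0.020. In the main fit the 200 genes nearest to each in coding length had median differences of -0.03, -0.04 and -0.05, in that order. The part of coding length in each sign was not tested. The median difference over all genes was 0.052 with that trend removed, against 0.008 in the main fit. The number of genes called over all, 275, was 638 with array weights. With 1 array left out it was 19 to 257, and that of called thiamine genes 0 to 2, in fits with fewer arrays. With the replicate number as a block it was 35, and 0 of the 9 genes were called (THI13 1.06, adjusted p = 0.0512 by limma, with a range of 0.00907 to 0.164 over the alternatives). PET18, NRT1 and SNO3 also lost their calls under the block, which leaves 1 residual degree of freedom. The labels do not say that a number marks a pair: deviations from the group means correlated across genes with r = -0.38 for the arrays numbered 1 and r = -0.003 for those numbered 2. With the bound at the 90th or 99th percentile (6.05 or 7.38), 0 of the 9 genes had a mean below it. Near the background bound, to which THI13 came nearest of the 9, true folds may be understated. The 200 genes nearest to THI13 in mean level had a median difference of 0.15, a shift that may overstate its fold. Neither part was tested.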
